A study of Mus musculus with 10 samples.

Results

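The BTB zinc finger family of transcription factors was followed across RNA-seq libraries of mouse germinal center B cells in which another family gene, Zbtb38, was intact, heterozygous or deleted. Members were chosen by symbol: any gene called Zbtb with a number after it, together with Hic1, Hic2 and Patz1, while Zbtb38 itself and the other methyl-CpG-binding genes Zbtb4 and Zbtb33 were kept out. This gave 41 of 22380 genes, read from 144 of 64019 transcripts. Zbtb8os entered through its symbol alone, since its product, archease, is a cofactor of tRNA ligation with no zinc fingers. ZBTB38 WT mice (n = 2) carried Zbtb38fl/fl without Cre, ZBTB38 HET mice (n = 2) carried Zbtb38fl/+ x Vav-Cre, and ZBTB38 KO mice (n = 6) carried Zbtb38fl/fl x Vav-Cre, all labelled C57Bl6/N. The floxed allele has loxP sites around exon 3, came from a single founder made in C57Bl6/J zygotes, and is removed by a Cre that acts mainly in blood cells. WT mice therefore differ from KO mice in Cre as well as in Zbtb38, and HET mice do not. The labels call the mice untreated, but per the study's methods every mouse had received NP-OVA in alum, and NP-binding GL7+IgD- B cells were isolated 2 weeks later. No age is given in the sources used here. The libraries held 41059082 and 27462439 estimated counts in WT, 32191770 and 28412924 in HET, and 26612431 to 33894832 in KO.

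The family is named after a BTB domain, by which its proteins form dimers, and after its zinc fingers. In lymphocytes they are known as lineage switches: BCL6 establishes the germinal center program, ThPOK directs CD4 T cells, PLZF directs innate-like T cells, and ZBTB20 and ZBTB32 act in plasma cells and memory B cells. ZBTB38 belongs to a branch of the family that binds methylated CpG.

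Zbtb38 was read first as a check of the labels. In CPM, counts scaled to a common library size with TMM so that libraries can be compared for a given gene, it was at 162 and 152 in WT, at 117 and 106 in HET, and at 18.6 at the lowest, 30.3 at the median and 50.3 at the highest in KO. The genotypes did not overlap, and HET lay between WT and KO, so every library matched its label. For WT plus HET over KO its log2 fold change was 2.08 (SE 0.232, adjusted p = 0.0104 in edgeR's quasi-likelihood test and Benjamini-Hochberg adjustment), and 1.04 with length-scaled counts. The alternatives gave adjusted p between 3.48e-13 and 0.745. By the same edgeR test and adjustment it was 2.31 for WT over KO (adjusted p = 0.0734), 1.82 for HET over KO (adjusted p = 0.128) and 0.49 for WT over HET (adjusted p = 0.873). The 8 germinal center B cell markers (Bcl6, Fas, S1pr2, Mef2b, Gcsam, Rgs13, Cd79a and Ms4a1) were all above 1 CPM in every library. None of these 8 had an unadjusted p under 0.05 in any comparison by edgeR, DESeq2 or limma. A fit of only WT and HET libraries in edgeR, however, called Gcsam and Rgs13, both lower in WT, beside 3.96% of all genes. Cd79a was the most abundant, at 2216 TPM (a unit scaled by transcript length, which allows levels of different genes to be ranked).

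KO replicate 6 stood apart among the 10 libraries. It held the lowest CPM of all libraries for 14 of 41 members (34.1%, beside 21.9% of all genes) and the highest for 12 (29.3%, beside 19.7%). Of the genes that averaged 1 to 5 CPM in the other libraries, 8.58% had no count in it, against 0.63% to 5.94% in the rest. Its depth, 33894832 estimated counts, was the highest in KO. Several results are given with and without it.

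In level the family ranged over 3 orders of magnitude. Mean TPM over the 10 libraries was 100 or more for 2 members, between 10 and 100 for 17, between 1 and 10 for 12, and under 1 for 10. Thus 31 of 41 members (75.6%) averaged at least 1 TPM, as did 49.3% of all genes, and 28 members reached 1 TPM in every library. The median member was at 5.94 TPM beside 0.902 for all genes, but among genes of at least 1 TPM the order turned, with 12.9 for the members and 22.1 for all genes. Family members were thus mostly detected and mostly of moderate level, and no member exceeded the 94.5 percentile of all genes.

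Zbtb20, the regulator of plasma cell survival, averaged 151 ± 74.2 TPM (SD, n = 10) and ranged from 51.3 to 323. Zbtb8os averaged 135 ± 14.7 TPM (SD, n = 10), and each of these genes was first in 5 libraries. Zbtb7a, also known as LRF and needed by germinal center B cells, followed at 56.9 ± 10.4 TPM (SD, n = 10) and was among the first 3 in 9 libraries. These 3 genes made up 51.2% of the summed TPM of the members, with Zbtb8os counted among them. Below them came Zbtb25 at 30.5 TPM, Zbtb17 at 25.0, Zbtb32 at 22.5, Zbtb24 at 19.8, Patz1 at 19.5, Zbtb14 at 16.5, Zbtb9 at 15.6, Zbtb2 at 15.1 and Zbtb22 at 15.0. Ranges over the libraries overlapped for 39 of the 40 pairs of neighbours in this order. Such overlap sets different libraries against each other, so it does not show whether 2 genes change order within a library. Zbtb7a, at 34.2 TPM at the lowest, and Zbtb25, at 38.9 at the highest, overlapped, yet Zbtb7a was above Zbtb25 in every library. Zbtb32 moved most among the first 12 members, from rank 19 in 1 library to rank 2 in KO replicate 6.

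**Figure D1:**
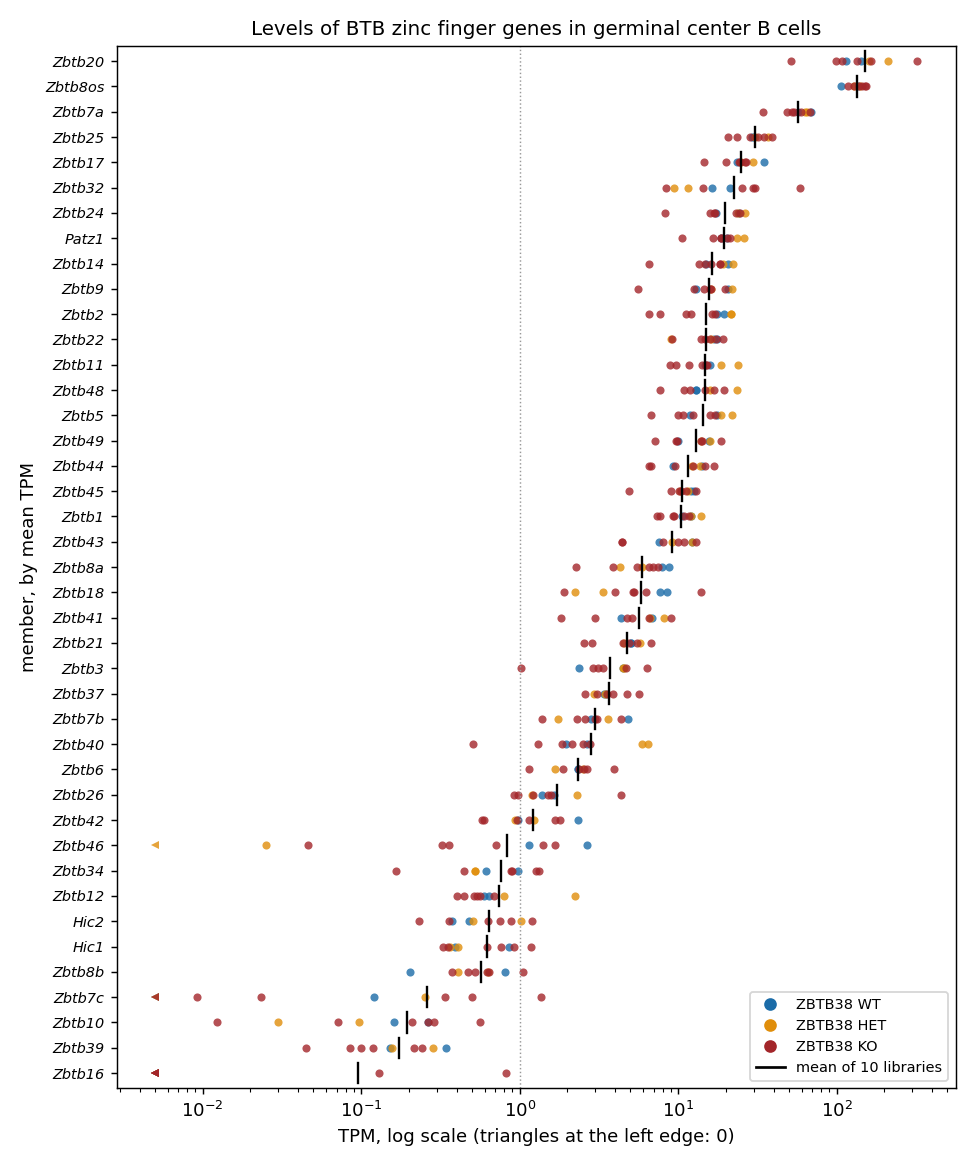
Levels of the 41 members in germinal center B cells, in TPM on a log axis, with Zbtb8os included by its symbol alone. Each dot is a library colored by genotype, and the short line is the mean of 10 libraries. Triangles at the left edge are values of 0, and the dotted line marks 1 TPM. Zbtb20, Zbtb8os and Zbtb7a lead at means of 151, 135 and 56.9 TPM, and Zbtb16 is last at 0.0952 TPM.

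At the lower end, 10 members averaged under 1 TPM: Zbtb46, Zbtb34, Zbtb12, Hic2, Hic1, Zbtb8b, Zbtb7c, Zbtb10, Zbtb39 and Zbtb16. Only Zbtb16, which encodes PLZF, averaged under 0.1 TPM. A count of 0 was found in at least 1 library for 3 members, Zbtb46, Zbtb7c and Zbtb16, and at this depth it allows up to 3 counts. As reads copied by PCR could not be told apart, such floors and intervals reflect counting error alone.

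The summed TPM of the family was 657 and 650 in WT, 767 and 732 in HET, and between 521 and 878 in KO. Both HET libraries lay above both WT libraries and within the range of KO. Without Zbtb20 the sum was 525 ± 24.1 TPM (SD, n = 2) in WT, 564 ± 10.1 (SD, n = 2) in HET and 495 ± 52.9 (SD, n = 6) in KO. Without Zbtb20 and Zbtb8os, which is no zinc finger gene, it was 403 ± 2.74 TPM (SD, n = 2) in WT and 429 ± 1.06 (SD, n = 2) in HET. In KO that sum was 356 ± 65.8 (SD, n = 6). The difference between the genotypes in any of these sums was not tested.

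Each comparison was then read from a test across all genes, with the controls placed over KO and WT over HET. WT against KO asks what loss of Zbtb38 does against mice without Cre, WT plus HET against KO enlarges the control group, and the comparisons with HET set the heterozygotes apart. Since these comparisons share libraries, their values stand side by side and are not independent. Zbtb16 entered the tests only through counts in KO replicates 4 and 6, and it was not tested in WT plus HET against KO, so 40 members were tested there and 41 in each other comparison.

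No member passed an adjusted p of 0.1 by edgeR's quasi-likelihood test and Benjamini-Hochberg adjustment in any of the 4 comparisons. Between WT and KO, 0 of 41 members also had an unadjusted p under 0.05 by edgeR, by DESeq2 or by limma, where edgeR gave 2.19% of all 14203 genes at that level, DESeq2 2.9% and limma 3.08%. At the adjusted threshold they were 0.00704% with edgeR, 0.0406% with DESeq2 and none with limma. Without KO replicate 2 or KO replicate 4, edgeR gave 1 member at an unadjusted p under 0.05 (347 and 544 of all genes, beside 311). It also gave 1 with all 10 libraries in the fit (389 of all genes) and 1 with the replicate number as a block (1090 of all genes). Between WT plus HET and KO, edgeR gave 5 members higher in the controls (12.5% of 40, against 4.05% of all genes) and 1 lower (2.5%, against 2.26%) at an unadjusted p under 0.05. DESeq2 gave 6 such members (7% of all genes) and limma 3 (6.97% of all genes). Neither called a member, and 0.00749% of all genes passed the adjusted threshold of edgeR, 0.145% that of DESeq2 and none that of limma. The count of 6 in edgeR, beside 841 of all genes, was 1 without HET replicate 1 (491 of all genes) and 2 without HET replicate 2 (450). It was 3 without WT replicate 1 (739 of all genes), and 4 without either KO replicate 4 (1198) or KO replicate 6 (774).

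Between HET and KO, edgeR gave 6 of 41 members higher in HET (14.6%, against 5.46% of all genes) and 2 lower (4.9%, against 4.76%) at an unadjusted p under 0.05, with 0.00697% of all genes past the adjusted threshold. DESeq2 also gave 8 members at that level (11.4% of all genes) and called 4 of them (2.91% of all genes), while limma gave 5 (7.67% of all genes) and called 0 (0.00697% of all genes). Without HET replicate 1, which leaves 1 HET library, fewer members reached an unadjusted p under 0.05 in edgeR, and so did fewer of all genes. Between WT and HET, edgeR gave 1 member higher in WT (2.4%, against 3.98% of all genes) and 2 lower (4.9%, against 2.44%), again with 0.00697% of all genes past the adjusted threshold. DESeq2 and limma each gave 3 members at that level, beside 7.37% and 6.07% of all genes, and DESeq2 called 1, beside 0.967% of all genes. A fit of only WT and HET libraries in edgeR called 2 of 39 members, Zbtb40 and Zbtb46, beside 3.96% of all genes. Without WT replicate 1, WT replicate 2 or HET replicate 1, fewer members reached an unadjusted p under 0.05 in edgeR, and so did fewer of all genes. Without KO replicate 6 edgeR gave 5 members at that level, beside 1343 of all genes, where the main fit gave 922.

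The median log2 fold change of the members lay near 0 in each comparison. It was 0.037 for WT over KO (-0.014 over all genes tested), 0.082 for WT plus HET over KO (-0.023), 0.16 for HET over KO (-0.068) and -0.14 for WT over HET (0.010), the last being -0.17 without Zbtb16, which had no count in either genotype. Its size without regard to direction had a median of 0.18 for WT over KO (0.23 over all genes), 0.27 for WT plus HET over KO (0.21), 0.36 for HET over KO (0.31) and 0.33 for WT over HET (0.29). Members with positive fold changes were 22 of 41 for WT over KO (53.7%, against 48.2% of all genes), 25 of 40 for WT plus HET over KO (62.5%, against 47.2%), 24 of 41 for HET over KO (58.5%, against 43.7%) and 15 of 41 for WT over HET (36.6%, against 51.1%).

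Markers of cells that a sort of GL7+IgD- B cells should remove were also read, and their sums were low in HET. T cell markers (Lck the most abundant, at 113 TPM) summed to 269 and 260 CPM in WT, 190 and 194 in HET, and 182 to 265 in KO. Without Lck, which carried most of these sums, the other 9 summed to 108 and 92.3 in WT, 18.9 and 29.4 in HET, and 28.6 to 77.9 in KO, so WT lay above every KO library. Naive B cell markers (Fcer2a, 203 TPM) summed to 1105 and 1155 CPM in WT, 782 and 781 in HET, and 684 to 1554 in KO, with KO replicate 6 the highest. Dendritic cell and macrophage markers without Zbtb46 (Lyz2, 197 TPM) summed to 646 and 528 CPM in WT, 181 and 169 in HET, and 172 to 815 in KO. HET thus lay in the lower part of the KO range, or just below it, for these 3 lists.

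Erythroid markers (Hbb-bt, 118 TPM) summed to 44.8 and 57.1 CPM in WT, 38.8 and 35.5 in HET, and 55.6 to 96.5 in KO, and without Hbb-bt to 9.43 and 23.2 in WT, 4.14 and 1.95 in HET, and 13.7 to 43.0 in KO. Markers of natural killer and innate-like T cells (Il2rb, 7.02 TPM) summed to 30.1 and 25.1 CPM in WT, 10.8 and 4.60 in HET, and 10.1 to 39.6 in KO, the highest again in KO replicate 6. Plasma cell markers (Jchain, 1230.1 TPM) summed to 1583 and 1379 CPM in WT, 1270.0 and 1179 in HET, and 1164 to 1746 in KO. Without Jchain they summed to 415.5 and 362.1 in WT, 307.1 and 255.1 in HET, and 277.8 to 571.1 in KO, with KO replicate 6 the highest. No gene of any list was at 0 in every library, and none of these markers passed an adjusted p of 0.1 by edgeR's quasi-likelihood test and Benjamini-Hochberg adjustment or by limma. In edgeR's fit of only WT and HET libraries, 5 T cell, 4 naive B cell, 6 dendritic cell and macrophage and 1 natural killer marker were called, all higher in WT (3.96% of all genes called), and without KO replicate 6 Klf2 was. In HET against KO, edgeR's unadjusted p under 0.05 was reached by lower values of 4 of 10 T cell, 4 of 6 naive B cell, 4 of 10 dendritic cell and macrophage, 3 of 5 erythroid, 2 of 4 natural killer and 1 of 6 plasma cell markers, beside 4.76% of all genes. DESeq2 called 2 T cell, 3 naive B cell, 3 dendritic cell and macrophage, 3 erythroid, 1 natural killer and 1 plasma cell marker there, all lower in HET, beside 2.91% of all genes called. In WT against HET, 6 T cell, 3 naive B cell, 6 dendritic cell and macrophage, 3 erythroid, 2 natural killer and 1 plasma cell marker were higher in WT at an unadjusted p under 0.05 by edgeR, beside 3.98% of all genes. DESeq2 called 3 T cell, 3 naive B cell, 2 erythroid and 1 dendritic cell and macrophage marker there, beside 0.967% of all genes. Differences were not confined to HET. Of the T cell markers, 3 of 10 were higher in WT than in KO at an unadjusted p under 0.05 by edgeR (3 by DESeq2, 4 by limma), beside 2.19% of all genes in either direction. Of the 4 erythroid markers that edgeR tested, 3 were lower in WT plus HET than in KO at that level (4 by DESeq2, 4 by limma), beside 2.26% of all genes. The part of these cells in the members' values was not tested, and in bulk RNA fewer cells of a type and less RNA per cell cannot be told apart.

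Among the members with roles in lymphocytes and the germinal center, Zbtb1, which is required for lymphoid development, was at 105 and 90.4 CPM in WT, 107 and 121 in HET, and 75.7, 89.6 and 99.5 in KO (lowest, median and highest). HET lay above all KO libraries, and WT overlapped them. In HET over KO the log2 fold change was 0.36 (SE 0.133, unadjusted p = 0.0188, adjusted p = 0.422 in edgeR's quasi-likelihood test and Benjamini-Hochberg adjustment). For WT plus HET over KO it was 0.25 (SE 0.109, adjusted p = 0.744 in the same edgeR test with Benjamini-Hochberg adjustment), and 0.22 without KO replicate 6.

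Zbtb32, a repressor that limits memory B cell recall, was at 17.8 and 21.4 CPM in WT, 9.91 and 12.3 in HET, and 11.5, 27.5 and 75.1 in KO (lowest, median and highest). HET was low and overlapped only the lower end of KO, while KO replicate 6 was far above all other libraries. Its mean in KO was 31.5 ± 22.6 CPM (SD, n = 6), and 22.8 ± 8.51 (SD, n = 5) without that library. The log2 fold change of WT plus HET over KO was -1.04 (SE 0.449, unadjusted p = 0.0384 in edgeR's quasi-likelihood test), which made Zbtb32 the only member lower in the controls at an unadjusted p under 0.05. No member was lower at that level by limma, nor in edgeR with the replicate number as a block or without KO replicate 4 or KO replicate 6. The log2 fold change of Zbtb32 was -0.26 with the block and -0.57 without KO replicate 6. For HET over KO it was -1.50 (SE 0.593, adjusted p = 0.436 in edgeR's quasi-likelihood test and Benjamini-Hochberg adjustment), and -1.04 without KO replicate 6. That library was also highest for the sums of naive B cell, natural killer and erythroid markers, and of plasma cell markers without Jchain. It was not highest for T cell, for dendritic cell and macrophage, or for plasma cell markers with Jchain. The part of these cells in Zbtb32 was not tested.

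Zbtb20 was at 204 and 224 CPM in WT, 376 and 272 in HET, and 107, 252 and 516 in KO (lowest, median and highest). KO alone spanned every control library, and the mean of 265 ± 138 CPM (SD, n = 6) in KO lay between 214 ± 14.4 (SD, n = 2) in WT and 324 ± 73.5 (SD, n = 2) in HET. In HET over KO its log2 fold change was 0.29 (SE 0.407), which was 0.13 without KO replicate 6, 0.042 without HET replicate 1 and 0.59 without KO replicate 2. It turned to -0.25 with the replicate number as a block. Zbtb20 was thus the highest zinc finger gene of the family and among the most variable of the high ones, with no difference between genotypes detectable beyond that spread.

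Zbtb18, a repressor best known from the developing cortex, was at 13.2 and 13.9 CPM in WT, 5.90 and 8.18 in HET, and 4.85, 11.6 and 41.5 in KO (lowest, median and highest). HET was below WT but inside the range of KO, whose highest value was again replicate 6. Without that library the KO mean was 10.02 ± 3.27 CPM (SD, n = 5), beside 15.3 ± 13.2 (SD, n = 6) with it.

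Zbtb7a varied little, with 78.4 and 90.1 CPM in WT, 88.7 and 90.9 in HET, and 65.1, 78.8 and 88.8 in KO (lowest, median and highest). Zbtb17, the MYC partner Miz-1, was at 43.2 and 62.1 CPM in WT, 55.1 and 45.6 in HET, and 34.8, 44.6 and 58.1 in KO. WT overlapped KO for both genes, and their log2 fold changes of WT over KO, 0.09 (SE 0.156) and 0.23 (SE 0.214), turned to -0.014 and -0.057 without WT replicate 2.

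Zbtb24, whose human counterpart is mutated in an immunodeficiency with unstable centromeres, was at 45.0 and 31.4 CPM in WT, 45.6 and 49.7 in HET, and 17.97, 36.6 and 43.4 in KO. Patz1, a regulator of Cd8 genes in thymocytes, was at 36.2 and 40.3 CPM in WT, 44.2 and 48.0 in HET, and 25.1, 37.8 and 43.5 in KO. Zbtb25 was at 33.99 and 35.2 CPM in WT, 46.9 and 35.7 in HET, and 30.5, 36.8 and 44.3 in KO. In CPM both HET libraries lay above every KO library for Zbtb24 and Patz1 and WT overlapped KO, though in TPM HET replicate 1 was below KO replicate 4 for Zbtb24 (23.98 and 24.65), while for Zbtb25 all groups overlapped KO. KO replicate 6 was the lowest library for all 3 genes. The log2 fold changes of HET over KO were 0.44 (SE 0.277) for Zbtb24, 0.34 (SE 0.209) for Patz1 and 0.17 (SE 0.186) for Zbtb25, none with an unadjusted p under 0.05 by edgeR's quasi-likelihood test. Without KO replicate 6 they were 0.31, 0.26 and 0.11, and that of Zbtb25 was -0.042 without HET replicate 1.

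Members that mark other blood lineages were low. Zbtb46, the factor of classical dendritic cells, was at 5.57 and 2.52 CPM in WT, 0.0956 and 0 in HET, and 0.182, 1.44 and 3.84 in KO (lowest, median and highest). HET lay below every other library. HET held only 3 counts, all in replicate 1, beside 305 in WT and 342 in KO, so the ratio of WT to HET was 89.9 with a 95% counting interval of 30.5 to 438, and that of KO to HET was 38.1 (12.9 to 186). Without HET replicate 2 the ratios were 47.8 (16.2 to 233) and 20.2 (6.87 to 98.7), and without WT replicate 1 that of WT to HET was 53.7 (17.7 to 266). Without HET replicate 1 HET had no count, and a floor of 3 counts over the group gave ratios for Zbtb46 of 42.2 in WT and 17.9 in KO. All these ratios used library totals without TMM factors, which were 1.015 and 1.054 in WT and 0.9726 in HET replicate 2. With TMM the 2 floor ratios would be somewhat lower, so they are not strict lower bounds. In edgeR's quasi-likelihood test and Benjamini-Hochberg adjustment the unadjusted p was 0.00174 for WT against HET (adjusted p = 0.709) and 0.00356 for HET against KO (adjusted p = 0.322). DESeq2 called Zbtb46 in both, with adjusted p of 0.00365 and 0.00474, and over all alternatives the adjusted p ran from 0.00365 to 1 and from 0.00474 to 0.921. Between WT and KO the groups overlapped, with a log2 fold change of 1.09 (SE 0.838), which was 0.41 without WT replicate 1 and 1.55 without WT replicate 2.

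Other dendritic cell and macrophage genes only partly followed Zbtb46. Lyz2 was at 345 and 298 CPM in WT and at 35.7 and 22.7 in HET, whereas Flt3 was at 57.6 and 65.6 in WT and at 90.1 and 66.9 in HET. Itgax was at 2.95 and 1.28 CPM in WT and at 0.988 and 1.12 in HET. Of the 10 markers other than Zbtb46, 6 were higher in WT than in HET at an unadjusted p under 0.05 by edgeR, beside 3.98% of all genes. Of the genes that averaged 1 to 5 CPM in the other libraries, 5.94% and 3.10% had no count in HET. These shares were 0.68% and 1.42% in WT and 0.63% to 8.58% in KO, with KO replicate 1 at 4.43%. The part of these markers and of such losses in the values of Zbtb46 was not tested.

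Zbtb16 had no count in WT, in HET or in 4 of the KO libraries, and was at 0.438 CPM in KO replicate 4 and 1.65 in KO replicate 6, on 69 counts in all. Natural killer and innate-like T cell markers summed to 15.5 and 39.6 CPM in these libraries. Where Zbtb16 had no count they summed to 30.1 and 25.1 CPM in WT, 10.8 and 4.60 in HET, and 10.06 to 26.95 in KO. The first of the 2 libraries with counts thus lay within this range and the other above it. The part of these markers in Zbtb16 was not tested. Zbtb7b, which encodes ThPOK, was at 4.59 and 8.16 CPM in WT, 7.49 and 4.34 in HET, and 2.96, 5.91 and 8.80 in KO. All groups overlapped for Zbtb7b, with a log2 fold change of WT over KO of 0.048 (SE 0.459), which was -0.42 without WT replicate 2 and -0.093 without KO replicate 5.

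Among members tied to genome and telomere maintenance, Zbtb40 was at 10.2 and 8.43 CPM in WT, 23.6 and 22.9 in HET, and 3.03, 8.50 and 11.2 in KO (lowest, median and highest). The HET libraries lay close together and above every other library, and WT fell inside KO. The log2 fold change of HET over KO was 1.54 (SE 0.366, unadjusted p = 0.00131, adjusted p = 0.266 in edgeR's quasi-likelihood test and Benjamini-Hochberg adjustment), and 1.37 without KO replicate 6. For WT over HET it was -1.32 (SE 0.489, adjusted p = 0.713 in edgeR's quasi-likelihood test and Benjamini-Hochberg adjustment). DESeq2 called Zbtb40 between HET and KO with an adjusted p of 0.0122, within a range of 0.0122 to 0.921 over the alternatives. A fit of only WT and HET libraries called it between these genotypes with an edgeR quasi-likelihood adjusted p of 0.0595 after Benjamini-Hochberg adjustment, within 0.0595 to 1 over the alternatives. In WT plus HET over KO its log2 fold change was 1.02 (SE 0.379), while WT over KO gave 0.22 (SE 0.437), and 0.049 without KO replicate 6.

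Zbtb48, the telomere-binding protein TZAP, was at 15.5 and 16.4 CPM in WT, 20.1 and 26.5 in HET, and 10.5, 17.7 and 20.6 in KO. HET was above WT and overlapped the top of KO, and the log2 fold change of WT over HET was -0.55 (SE 0.319, unadjusted p = 0.113 in edgeR's quasi-likelihood test), which was -0.33 without HET replicate 2. Zbtb43 spread widely, from 5.83 to 29.0 CPM in KO, with 25.2 and 16.7 in WT and 31.4 and 21.6 in HET. Zbtb10 was at 0.840 and 1.35 CPM in WT, 0.159 and 0.507 in HET, and 0.0729 to 3.49 in KO, so its groups overlapped KO as those of Zbtb43 did.

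The repressors Hic1 and Hic2, named for hypermethylation in cancer, were low. Hic1 was at 0.936 and 2.00 CPM in WT, 0.988 and 0.869 in HET, and 0.751, 1.85 and 3.03 in KO. Hic2 was at 1.68 and 2.11 CPM in WT, 4.62 and 2.28 in HET, and 1.11, 3.22 and 5.16 in KO. KO spanned all control values of both genes.

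Of the remaining members, Zbtb2, a repressor linked to the p53 pathway, separated controls from KO. It was at 41.2 and 36.9 CPM in WT, 46.7 and 46.0 in HET, and 16.7, 27.1 and 34.4 in KO (lowest, median and highest). Every control library lay above every KO library, with KO replicate 6 the lowest. Its log2 fold change was 0.67 for WT plus HET over KO (SE 0.195, unadjusted p = 0.00456, adjusted p = 0.744 in edgeR's quasi-likelihood test and Benjamini-Hochberg adjustment), the smallest p of any member there. It was 0.57 without KO replicate 6. For WT over KO it was 0.55 (SE 0.263, unadjusted p = 0.0627 in edgeR's quasi-likelihood test), and for HET over KO 0.79 (SE 0.243, adjusted p = 0.37 in edgeR's quasi-likelihood test and Benjamini-Hochberg adjustment). DESeq2 called Zbtb2 between HET and KO with an adjusted p of 0.0826, within a range of 0.0826 to 0.921 over the alternatives. Zbtb2 was thus higher in 4 of 4 controls than in any KO library, yet it passed the threshold only in DESeq2's comparison of HET with KO. The share of all genes whose groups separate in this way is not given here. The same limit holds for the members with HET above every KO library.

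Zbtb11, a regulator of mitochondrial respiration genes, was at 54.2 and 49.5 CPM in WT, 83.9 and 64.3 in HET, and 35.9, 46.9 and 52.4 in KO (lowest, median and highest). HET lay above all other libraries, and WT overlapped KO. The log2 fold change of HET over KO was 0.69 (SE 0.171, unadjusted p = 0.00176, adjusted p = 0.29 in edgeR's quasi-likelihood test and Benjamini-Hochberg adjustment), and 0.62 without KO replicate 6. DESeq2 called it there with an adjusted p of 0.013, within a range of 0.013 to 0.921 over the alternatives. For WT over HET it was -0.52 (SE 0.217), for WT plus HET over KO 0.45 (SE 0.162) and for WT over KO 0.17 (SE 0.177). Without HET replicate 1 the first was -0.31 and the second 0.28, and without WT replicate 1 the last was 0.11.

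Zbtb5, a repressor of Cdkn1a, was at 50.8 and 32.9 CPM in WT, 57.8 and 50.2 in HET, and 21.9, 33.9 and 43.2 in KO. HET lay above all KO libraries, and the WT libraries fell on either side of the KO maximum. The log2 fold change of HET over KO was 0.69 (SE 0.244, unadjusted p = 0.0149 in edgeR's quasi-likelihood test) and that of WT plus HET over KO was 0.52 (SE 0.202, unadjusted p = 0.0231 in the same edgeR test). That of WT over KO, 0.33 (SE 0.262), turned to -0.018 without WT replicate 1. Zbtb44 was at 45.0 and 33.0 CPM in WT, 55.5 and 42.6 in HET, and 30.3, 38.2 and 39.2 in KO, with a log2 fold change of HET over KO of 0.44 (SE 0.183, unadjusted p = 0.0351 in edgeR's quasi-likelihood test). In CPM HET lay above all KO libraries for Zbtb44 and WT overlapped them, but in TPM HET, at 13.6 and 12.2, lay below KO replicates 2 and 4, at 16.8 and 14.8. The log2 fold change of Zbtb44 was 0.15 with length-scaled counts and 0.24 without HET replicate 1.

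**Figure D2:**
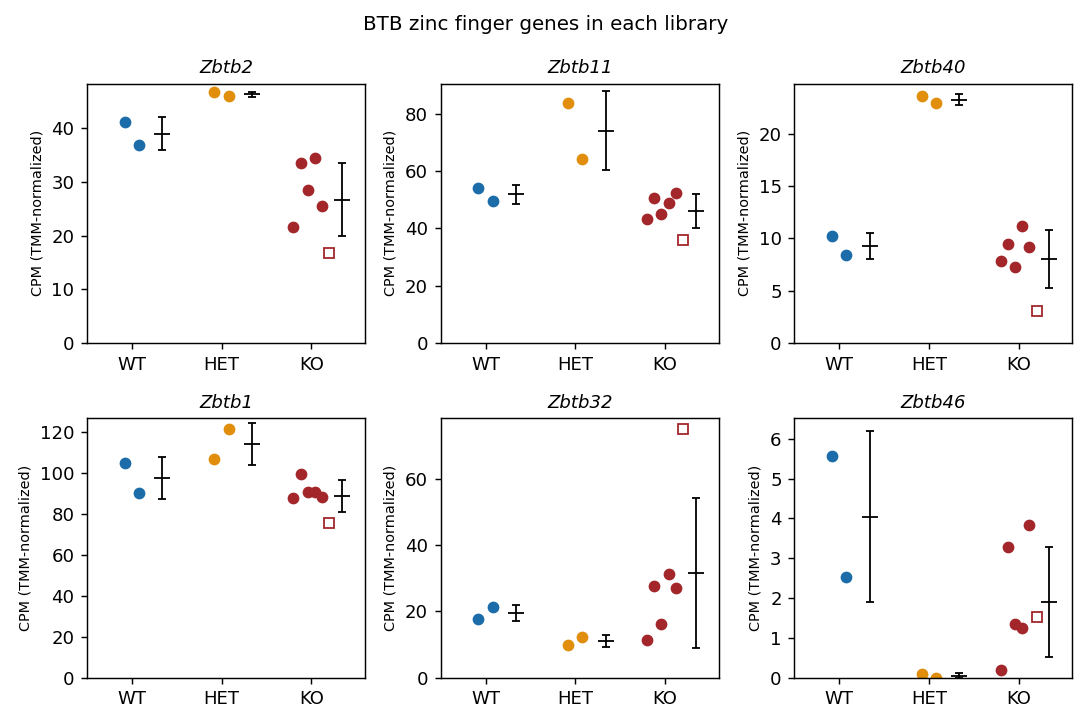
TMM-normalized CPM of Zbtb2, Zbtb11, Zbtb40, Zbtb1, Zbtb32 and Zbtb46 in each library of WT (n = 2), HET (n = 2) and KO (n = 6); points are libraries, the open square is KO replicate 6, and black marks are the mean ± SD. For Zbtb2 all 4 controls, at 36.9 to 46.7 CPM, sit above all KO libraries, at 16.7 to 34.4 CPM, while for Zbtb11, Zbtb40 and Zbtb1 only HET has all of its libraries there.

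Zbtb8os was at 53.8 and 41.6 CPM in WT, 51.1 and 50.8 in HET, and 46.5, 58.6 and 79.5 in KO, with a log2 fold change of WT over KO of -0.31 (SE 0.227), which was -0.13 without WT replicate 2 and -0.50 without WT replicate 1. Zbtb41 was at 11.5 and 14.7 CPM in WT, 21.4 and 18.2 in HET, and 9.0, 14.3 and 18.2 in KO, with a log2 fold change of WT over HET of -0.60 (SE 0.363). WT overlapped KO for both genes. Neither had an unadjusted p under 0.05 in any comparison by edgeR's quasi-likelihood test.

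Zbtb14, which was first described as a repressor of Myc, was at 54.5 and 39.0 CPM in WT, 51.2 and 58.4 in HET, and 22.3, 43.9 and 53.4 in KO. Zbtb9 was at 38.8 and 23.8 CPM in WT, 30.8 and 40.9 in HET, and 12.4, 30.8 and 35.2 in KO, and Zbtb22 was at 27.0 and 29.3 in WT, 15.0 and 28.0 in HET, and 19.0, 26.6 and 39.4 in KO. All genotypes overlapped for these 3 genes. Zbtb7c was at 0.288 and 0 CPM in WT, 0 and 0.796 in HET, and 0 to 3.06 in KO, and its highest value was again in KO replicate 6. The 15 members named by no criterion averaged between 0.174 and 12.9 TPM, and none of them had an unadjusted p under 0.05 in any comparison by edgeR, DESeq2 or limma.

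**Figure D3:**
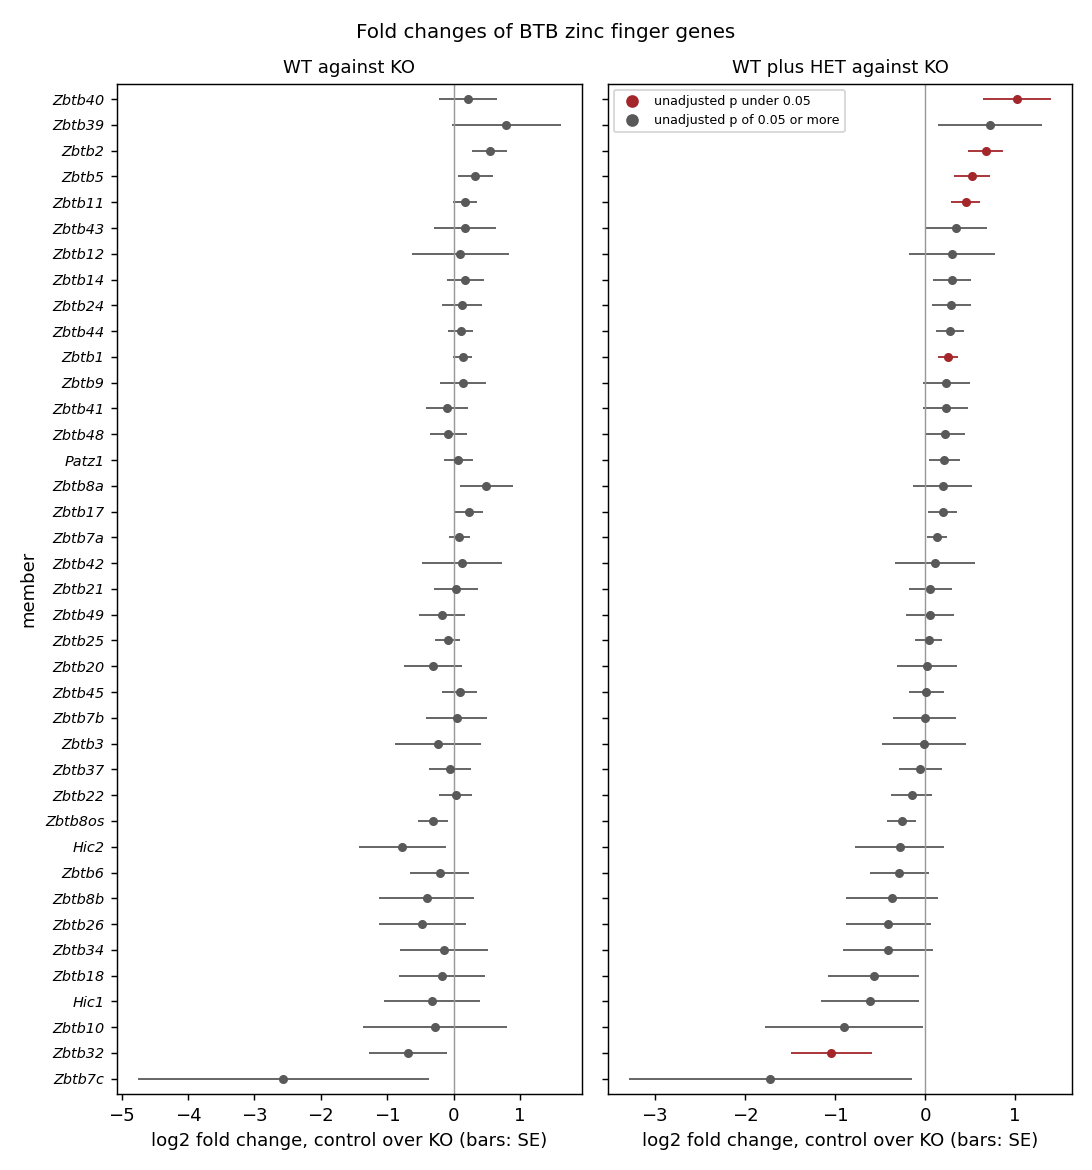
Log2 fold changes ± SE of 39 members for WT over KO and for WT plus HET over KO, without Zbtb16 and Zbtb46; red marks an unadjusted p under 0.05 in edgeR's quasi-likelihood test. With HET included, 5 members are marked above 0 and Zbtb32 below it, and with WT alone no member is marked.

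The libraries of KO, the only genotype with more than 2, showed how much the members varied between mice. The median SD of log2(CPM + 1) over the 6 KO libraries was 0.45 for the 41 members and 0.33 for the 14354 genes tested. Without KO replicate 6 it was 0.32 for the members and 0.29 for the genes, so this library carried most of the gap. The largest spreads were those of Zbtb18 at 0.94, Zbtb32 at 0.89 and Zbtb7c at 0.84, which became 0.51, 0.59 and 0.60 without KO replicate 6, when Zbtb43 at 0.84, Zbtb46 at 0.82 and Zbtb3 at 0.68 were the largest. Zbtb12 at 0.12, Zbtb1 at 0.13 and Zbtb44 at 0.15 had the smallest, but Zbtb12 stayed between 0.5003 and 0.913 CPM, where the added 1 hides most variation.

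BTB zinc finger genes that go by other symbols were read beside the members. Bcl6 averaged 97.4 TPM, below Zbtb20 and above Zbtb7a, and was at 232 and 247 CPM in WT, 278 and 294 in HET, and 169, 246 and 279 in KO. Zfp131 averaged 42.6 TPM, Mynn 15.9, Gzf1 5.66 and Bcl6b 0.0863. None had an unadjusted p under 0.05 in a comparison where it was tested by edgeR or limma, which left Bcl6b out of WT plus HET against KO, and DESeq2 gave only Bcl6b, in WT against KO and in WT plus HET against KO. Bcl6b had no count in WT or HET and 0 to 0.911 CPM in KO.

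The list of partners through which the family acts held 19 genes, namely Cul3, Ep300 and genes of corepressor, deacetylase and chromatin remodeling complexes. Most were abundant, with Bcorl1 at 0.295 TPM and Ctbp2 at 0.812 TPM the exceptions. Rbbp7 averaged 461 TPM, Hdac1 365 and Ctbp1 228, and 17 of the 19 were above 1 CPM in every library. None passed an adjusted p of 0.1 by edgeR's quasi-likelihood test and Benjamini-Hochberg adjustment or by limma. DESeq2 called only Tbl1x, between HET and KO, beside 2.91% of all genes. The fit of only WT and HET libraries in edgeR called Cul3 and Rbbp4 between these genotypes, beside 3.96% of all genes. At an unadjusted p under 0.05, edgeR gave 0 of 19 for WT against KO (DESeq2 0, limma 1), 2 higher for WT plus HET against KO (beside 4.05% of all genes), 3 higher for HET against KO (beside 5.46%), and 1 higher for WT against HET (beside 3.98%). Tbl1x, a subunit of the NCOR complex, had log2 fold changes of 0.32 for WT plus HET over KO (SE 0.111) and 0.44 for HET over KO, and Chd4, the NuRD remodeler, 0.33 (SE 0.121) and 0.36. Ep300 was at 0.74 for HET over KO, and Cul3 was at 1.18 (SE 0.442) for WT over HET, with 0.71 without WT replicate 1 and 1.53 without WT replicate 2.

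In the Gencode vM21 annotation of GRCm38, 7 members lie on chromosome 4 and 5 on chromosome 2. Zbtb2 (ENSMUSG00000075327.10) lies at chr10:4367075-4388108 on the minus strand, Zbtb11 (ENSMUSG00000022601.11) at chr16:55973883-56008913 on the plus strand, Zbtb40 (ENSMUSG00000060862.10) at chr4:136979732-137048801 on the minus strand, and Zbtb32 (ENSMUSG00000006310.10) at chr7:30589681-30598909 on the minus strand. Zbtb1, on the plus strand at chr12:76370266-76396950, stands head to head with Zbtb25, on the minus strand at chr12:76347782-76369602, yet only Zbtb1 had an unadjusted p under 0.05 in edgeR's test. Zbtb8os overlaps Zbtb8a on the other strand, and Zbtb6 overlaps Zbtb26 on the same strand. Zbtb17, Zbtb9, Zbtb22, Zbtb11, Zbtb45, Zbtb21, Zbtb37, Zbtb12 and Zbtb39 overlap other coding genes. The library kit does not mark strand, so reads in shared stretches could be split either way and these values are uncertain to that extent.

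Zinc fingers were counted in the coding sequence as the spacing of paired cysteines and histidines, in 37 members with a complete reading frame in the annotation. A match was found in 36, with a median of 4 and a range of 2 to 14, and Zbtb8os had none. Zbtb17 and Zbtb41 had 14, Zbtb40 13 and Zbtb11 12, while Zbtb2 and Zbtb5 had 2. The 6 members with an unadjusted p under 0.05 by edgeR and higher values in HET than in KO thus spanned most of this range, from 2 in Zbtb2 and Zbtb5 to 13 in Zbtb40.

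Transcript usage differed between members. Zbtb20 was read from 12 transcripts, of which the most abundant held 24.1% of its TPM (12.8% to 30.2% over the libraries). Zbtb11 and Zbtb1 were each read from 1 transcript. Zbtb2 was read from 2, and the share of the more abundant ranged from 14.1% to 74.6%. For Zbtb40 and Zbtb32 the leading of 2 transcripts held 79.0% and 87.4%.

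Promoters were taken from RefSeq (GRCm38.p6) as the 250 bases before the start, and 36 of 41 members matched by symbol, without Zbtb10, Zbtb16, Zbtb40, Zbtb48 and Zbtb7c. For Zbtb20, Zbtb46, Zbtb6, Zbtb34 and Zbtb7b this start lies 1309 to 260979 bases from that of the transcript most abundant here. The dinucleotide CG, which reads the same on both strands and is the unit of DNA methylation, occurred at a median of 21 per promoter (0 to 43) in the members, of 11 in 18573 promoters of genes in these data and of 6 in all 32851. At least 10 were found in 29 members (80.6%), in 53.6% of promoters of genes in these data and in 37.8% of all. Members of at least 10 TPM had a median of 24 and members under 1 TPM a median of 18. Methylation was not measured here. The promoters of Zbtb2 and Zbtb32 are shown because these genes had the smallest p among members higher in the controls and the only unadjusted p under 0.05 among members lower in WT plus HET. Both are written 5′ to 3′ on the minus strand with CG in capitals, Zbtb2 at chr10:4388109-4388358, 633 bases from the start of its most abundant transcript, with 28 CG, and Zbtb32 at chr7:30592943-30593192, inside the annotated gene and just before the start of its main transcript, with 2 CG.
Zbtb2: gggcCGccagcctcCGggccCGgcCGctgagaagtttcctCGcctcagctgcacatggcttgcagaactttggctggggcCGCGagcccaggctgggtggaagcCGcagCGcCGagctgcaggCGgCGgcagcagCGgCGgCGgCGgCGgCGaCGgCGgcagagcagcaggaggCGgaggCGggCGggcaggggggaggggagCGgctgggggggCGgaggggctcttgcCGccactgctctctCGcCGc
Zbtb32: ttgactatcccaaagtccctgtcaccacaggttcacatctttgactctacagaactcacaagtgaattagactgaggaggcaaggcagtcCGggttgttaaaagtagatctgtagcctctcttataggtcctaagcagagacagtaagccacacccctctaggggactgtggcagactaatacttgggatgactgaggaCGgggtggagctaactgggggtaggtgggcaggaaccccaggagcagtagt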

How the data were processed

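SMART-Seq v4 libraries, 1 per mouse, were sequenced as paired-end reads and quantified with Salmon (0.9.1 per the submitters' processing notes) against Gencode vM17. Estimated counts for each transcript, not normalized, are what the authors deposited. The authors also deposited TPM and other values, the transcript length and effective length. Here counts and TPM were summed per gene, and summed counts, 46.7% of whose transcript values were not whole, were rounded. The depth of 26612431 to 41059082 estimated counts sets the precision, and a count of 0 allows up to 3 counts.

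Genotype and replicate came from the labels. edgeR 4.0.16 (TMM, filterByExpr, glmQLFit and glmQLFTest, Benjamini-Hochberg adjustment over all genes, threshold 0.1) was run in R 4.3.3, with fold changes as controls over KO or WT over HET. WT against KO and WT plus HET against KO used their own libraries. The comparisons of HET with KO and of WT with HET used all 10 with a term per genotype. The fits were tested on simulated data. The study used DESeq2 at the same threshold.

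The alternatives were DESeq2 1.42.0, its size factors in edgeR, limma 3.58.1 on log2(TPM + 1), length-scaled counts, no filter, a minimum of 10 counts per library, the replicate number as a block, all 10 libraries or only 2 genotypes in the fit, leaving out each library, and a threshold of 0.05. For levels and spread they were 1 TPM in every library, mean CPM, log2(CPM + 0.1) and log2(TPM + 1).

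Named with values were the 12 members with the highest mean TPM, 13 with textbook roles in blood cells, those with an unadjusted p under 0.05 or among the 5 smallest p in a comparison, those under 0.1 TPM, and the 3 largest and 3 smallest spreads in KO. Members of the role groups and of the lists (germinal center B cell, T cell, dendritic cell and macrophage, plasma cell, naive B cell, erythroid, natural killer and innate-like T cell, partners, and BTB zinc finger genes under other symbols) were also read. Members and lists were chosen with earlier results of these data known. Some genes first placed in the germinal center and partner lists were later left out. Positions came from Gencode vM21, a later release than that of the quantification, and promoters from RefSeq. No pair of libraries of a genotype agreed within sampling noise (chi-square per gene 25.7 to 161). Values were processed with Python 3.11.15, pandas 2.3.3, numpy 2.4.6 and scipy 1.17.1, sequences were read with Biopython 1.88, and figures were drawn with matplotlib 3.10.9.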

Additional observations from a re-analysis of the deposited data

Results flagged for a closer look

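In 6 of the 41 members, 1 KO library lay far from the other 5, by the gap to its nearest neighbor as a share of the whole range of log2(CPM + 1), which passed Dixon's critical value. The choice of scale matters, since on CPM without a log, a scale tried after seeing the data, 7 members passed, with Zbtb18, Zbtb32 and Zbtb8b added and Zbtb48 and Zbtb40 not among them. On the log scale the library in each of the 6 was KO replicate 6. Chance flags about 1 in 20 groups, which makes 2.05 of 41, but in these libraries the same gap was found in 9.57% of 14339 genes, beside 14.6% of the members, and in KO replicate 6 alone in 5.01% of the genes. KO replicate 6 was the lowest for Zbtb24 at 17.97 CPM (next 33.9), Zbtb9 at 12.4 CPM (next 29.4), Zbtb48 at 10.5 CPM (next 16.1) and Zbtb40 at 3.03 CPM (next 7.30). It was the highest for Zbtb26 at 19.0 CPM (next 6.23) and Zbtb16 at 1.65 CPM (next 0.438). On the log scale the gap took between 0.628 of the range for Zbtb16 and 0.823 for Zbtb9.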

How the results depend on the processing

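With 2 libraries in WT and in HET, the spread rests mainly on KO, and where a left-out library leaves 1 in a group, it is assumed to vary like the others. By edgeR's quasi-likelihood test, all genes called numbered 1 in each comparison. For WT against KO there were 7 with DESeq2, 0 with limma, 2 with all 10 libraries, 0 at a threshold of 0.05 and 0 to 2 with each library left out (at an unadjusted p under 0.05, edgeR gave 311, DESeq2 499 and limma 437). WT plus HET against KO gave 25 with DESeq2, 0 with limma, 0 with length-scaled counts in edgeR and 1 to 2 with each library left out (unadjusted 841 with edgeR, 1207 with DESeq2, 930 with limma and 791 with length-scaled counts). HET against KO gave 505 with DESeq2, 2 without a filter, and 0 in edgeR with at least 10 counts in every library, with length-scaled counts or with only 2 genotypes (unadjusted 1251, 1338 and 1247, beside 1979 with DESeq2 and 1101 with limma), and 0 to 5 with each library left out. WT against HET gave 168 with DESeq2, 0 in edgeR with at least 10 counts in every library (unadjusted 695, beside 1281 with DESeq2 and 871 with limma), 523 with only 2 genotypes and 0 to 16 with each library left out. Members called were 4 with DESeq2 for HET against KO, 1 with DESeq2 and 2 with only 2 genotypes for WT against HET, and none under the other alternatives, 0 to 0 with each library left out. The cause of these differences was not tested. Numbers shared by WT, HET and KO libraries name no pair, since same-numbered libraries correlated between -0.018 and 0.11 in their deviations. With the replicate number as a block, edgeR called 6, 0, 4 and 66 genes in the 4 comparisons in the order above (unadjusted 1090, 1104, 1396 and 1215), no member was among them, and the median for WT over HET was -0.21. Zbtb38 was then at 2.12 for WT over KO and 1.86 for WT plus HET over KO, neither past the threshold, and direction changed for Zbtb7a in WT over KO (-0.074) and Zbtb20 in HET over KO (-0.25), while Zbtb32 in WT plus HET over KO went to -0.26. Of the marker lists, the block called Lyz2 in WT over KO and Lyz2, Trac, Ccr7, Klf2 and Ighd in WT over HET.

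Zbtb38 lost its call for WT over KO with limma (log2 fold change 1.34), with length-scaled counts (1.20), at a threshold of 0.05 (2.31) and without WT replicate 1, WT replicate 2 or KO replicate 1, 3, 4 or 5, over a range of 2.19 to 2.49 with each library left out. For WT plus HET over KO it lost its call with limma (1.16) and length-scaled counts (1.04). It gained a call for HET over KO with DESeq2 (1.82), without a filter (1.82) and without KO replicate 2 or KO replicate 6 (range 1.70 to 2.00), and for WT over HET with only 2 genotypes in the fit (0.50). It kept its direction under every alternative run. The median log2 fold change of the members was 0.16 with limma for WT over KO (-0.045 to 0.048 with each library left out), 0.20 with limma for WT plus HET over KO (0.032 to 0.17) and -0.028 to 0.26 for HET over KO with each library left out. For WT over HET it was -0.10 with limma, -0.18 with at least 10 counts, -0.18 with length-scaled counts and -0.29 to -0.088 with each library left out. Among members with fold changes in the report, direction also changed with a library left out, for WT over KO, in Zbtb5 (range -0.018 to 0.61), Zbtb7a (-0.014 to 0.19), Zbtb17 (-0.057 to 0.47) and Zbtb7b (-0.42 to 0.41, and -0.093 without KO replicate 5), and for HET over KO in Zbtb25 (-0.042 to 0.35). For the other named members, 62 of 1087 values under alternatives had the other sign, and none had an adjusted p under 0.1 by edgeR, DESeq2 or limma with Benjamini-Hochberg adjustment. The spread in KO, 0.45, was 0.32 to 0.48 with each library left out, lowest without KO replicate 6. The 31 members at 1 TPM were 28 in every library, 37 by mean CPM and 31 to 31 with each library left out.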
